A study of Mus musculus with 18 samples.

Results

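The genes described here are 10 members of the BMP pathway: the ligands Bmp2, Bmp4, Bmp5 and Bmp7, the inhibitory Smads Smad6 and Smad7, and the target genes Id1, Id2, Id3 and Msx1. They were chosen by name, and every probe set that the array annotation gives to a single one of them was used. That gave 18 probe sets of the 45037 on the array, and 10 genes of 18193. Bmp5, Bmp7 and Id2 had 3 probe sets each, Smad7 and Msx1 had 2, and the others had 1. RNA came from whole mouse embryos at embryonic day 9.5, 1 embryo per array, on a mixed 129SvEv and C57Bl/6 background. The embryos carried 9 genotypes at Tbx1, each with 2 biological replicates: -/- (no functional allele), Neo/Neo, Neo2/-, Neo2/Neo, Neo2/Neo2, +/-, Neo/+, Neo2/+ and WT (the wild-type control, +/+). Neo and Neo2 are hypomorphic alleles, which keep part of the gene's activity, and - is a null allele. The alleles are present in every cell of the embryo. Signals are log2 values, so a difference of 1 is a doubling.

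Bone morphogenetic proteins (BMPs) are secreted ligands of the TGF-beta family that bind paired type I and type II receptors. The receptors phosphorylate the signal-carrying Smads (Smad1, Smad5 and Smad9), which enter the nucleus with Smad4. There they switch on target genes such as the Id and Msx genes, and also Smad6 and Smad7, which feed back to block the receptors. In the embryo at this stage BMPs pattern the pharyngeal arches, the outflow tract of the heart, the neural tube and the limb buds. Tbx1 codes for a T-box protein that the developing pharynx depends on, and that protein is known to bind Smad1.

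The Tbx1 probe set was read first, as a check of the labels. Its signal was 4.98 and 5.16 in -/-, 5.04 and 5.20 in Neo/Neo, 5.61 and 5.81 in Neo2/-, and 5.65 and 5.67 in Neo2/Neo, against 6.54 and 6.63 in WT. The +/-, Neo/+ and Neo2/+ arrays lay between 6.13 and 6.61. The arrays labelled Neo2/Neo2 had 6.62 on both arrays, the WT level, although Neo2/Neo and Neo2/- were low. Whether these 2 arrays carry the labelled genotype was not settled by the files, and every Neo2/Neo2 value below is that of the arrays so labelled. The array medians ran from 5.73 to 5.94. Tbx1 in -/- and Neo/Neo was below all of them, and the probe set did not separate these 2 genotypes (difference -0.05; limma, adjusted p = 0.921). The sources used here do not state whether it lies in the part of the gene removed in the null allele. A pair of arrays, -/- replicate 1 and +/- replicate 1, had median correlations with the rest of 0.985 and 0.975, while the other 16 had 0.991 to 0.995, and results are given with and without that pair. Judged by Xist and Y-linked signal, 9 of the embryos were female and 9 were male. The call was least clear for +/- replicate 1, taken as female, with Xist at 10.16 and a Y-linked mean of 4.25. The other females had Xist from 11.41 upwards and Y-linked means up to 3.46. The -/- and WT embryos were all female and the Neo/Neo and Neo2/Neo2 embryos all male. Of the 6 heart markers, the brightest, Actc1, ran from 11.46 to 12.70 and the dimmest, Nkx2-5, from 6.01 to 7.20. Of the 4 primitive red cell markers measured, Hbb-bh1, Hbb-y and Hba-x were at 13.52 or more and Alas2 was at 8.41 to 9.96. Of the 5 decidual markers, Prl8a2, Prl3c1 and Igfbp1 were at 4.01 or less, while Des and Wnt4 were at 7.29 to 7.92.

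Promoters of 6 of the 10 genes were found in the RefSeq table (build GRCm38.p6): Bmp4, Bmp5, Smad6, Id2, Id3 and Msx1. The 300 bases around each start, 250 before it and 50 after it, were searched on both strands for 3 motifs. The first, GGCGCC, is a GC-rich element bound by BMP Smads. The Smad box is CAGAC, which reads GTCTG from the other strand. The core of the T-box element is GTGTGA. Id2 and Id3 are shown because they are the Id genes among the 6 found and held these motifs. Id1, also a target gene, had no promoter entry and was not searched. The Id2 stretch is chr12:25096093-25096342 on the minus strand, and the Id3 stretch is chr4:136143572-136143821 on the plus strand. Both run 5′ to 3′ and end at the base before the start of the gene, with motif matches in capitals.
Id2: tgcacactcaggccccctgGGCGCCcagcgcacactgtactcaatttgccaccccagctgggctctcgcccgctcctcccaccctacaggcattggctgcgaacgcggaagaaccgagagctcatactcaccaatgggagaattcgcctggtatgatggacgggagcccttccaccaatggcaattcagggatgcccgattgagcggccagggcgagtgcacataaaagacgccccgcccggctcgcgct
Id3: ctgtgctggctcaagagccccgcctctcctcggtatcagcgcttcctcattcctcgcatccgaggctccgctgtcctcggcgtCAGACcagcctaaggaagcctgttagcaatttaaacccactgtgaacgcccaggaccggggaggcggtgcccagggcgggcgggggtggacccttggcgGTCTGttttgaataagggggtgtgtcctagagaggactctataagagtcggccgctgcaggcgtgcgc
The GGCGCC of Id2 begins 231 bases before the start, and the Smad boxes of Id3 begin 167 and 68 bases before it. GGCGCC occurs in 11.9% of all 32851 promoters of the table, CAGAC in 49.6% and GTGTGA in 14.5%. Bmp5 held 1 Smad box, and Bmp4, Smad6 and Msx1 held none of the 3 motifs in this window. None of the 6 promoters held GTGTGA. A match describes letters and not a bound site.

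None of the 18 probe sets passed the test in any of 13 comparisons, which used limma with p-values adjusted over all probe sets at a threshold of 0.05. Tbx1 itself fell by 1.52 on the log2 scale in -/- (limma, adjusted p = 0.00303) and by 1.47 in Neo/Neo (limma, adjusted p = 0.00286). Its differences of -0.88 in Neo2/- (limma, adjusted p = 0.420) and -0.92 in Neo2/Neo (limma, adjusted p = 0.189) did not pass. Calls were few in all. The share of all probe sets called against WT was 0.0311% in -/-, 0.0822% in Neo/Neo, 0.00222% in each of Neo2/-, Neo2/Neo and Neo2/Neo2, 0% in +/-, 0.0311% in Neo/+ and 0% in Neo2/+. It was 0.00666% for Neo/Neo and -/- together against the 4 genotypes with a wild-type allele, 0.506% for -/- against Neo/Neo and 2.65% for Neo2/Neo2 against Neo2/Neo. The F-test over the 9 genotypes called 0.275% and the slope on the Tbx1 signal 0%. Without the pair of arrays that stood apart no member passed against WT either, where 0.144% of all probe sets passed in -/-, 0.302% in Neo/Neo, 0.00444% in Neo2/-, 0.0511% in Neo2/Neo, 2.02% in Neo2/Neo2, 0.00222% in +/-, 0.151% in Neo/+ and 0% in Neo2/+. None passed in the F-test (2.77% of all), in -/- against Neo/Neo (1.22% of all), in the 3 against 7 arrays left (0.02% of all) or in the slope (0% of all). In simulated data the comparison of -/- with WT found 20% of true differences of 0.5 and 70% of those of 1, so small shifts of these genes could have been missed.

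**Figure D1:**
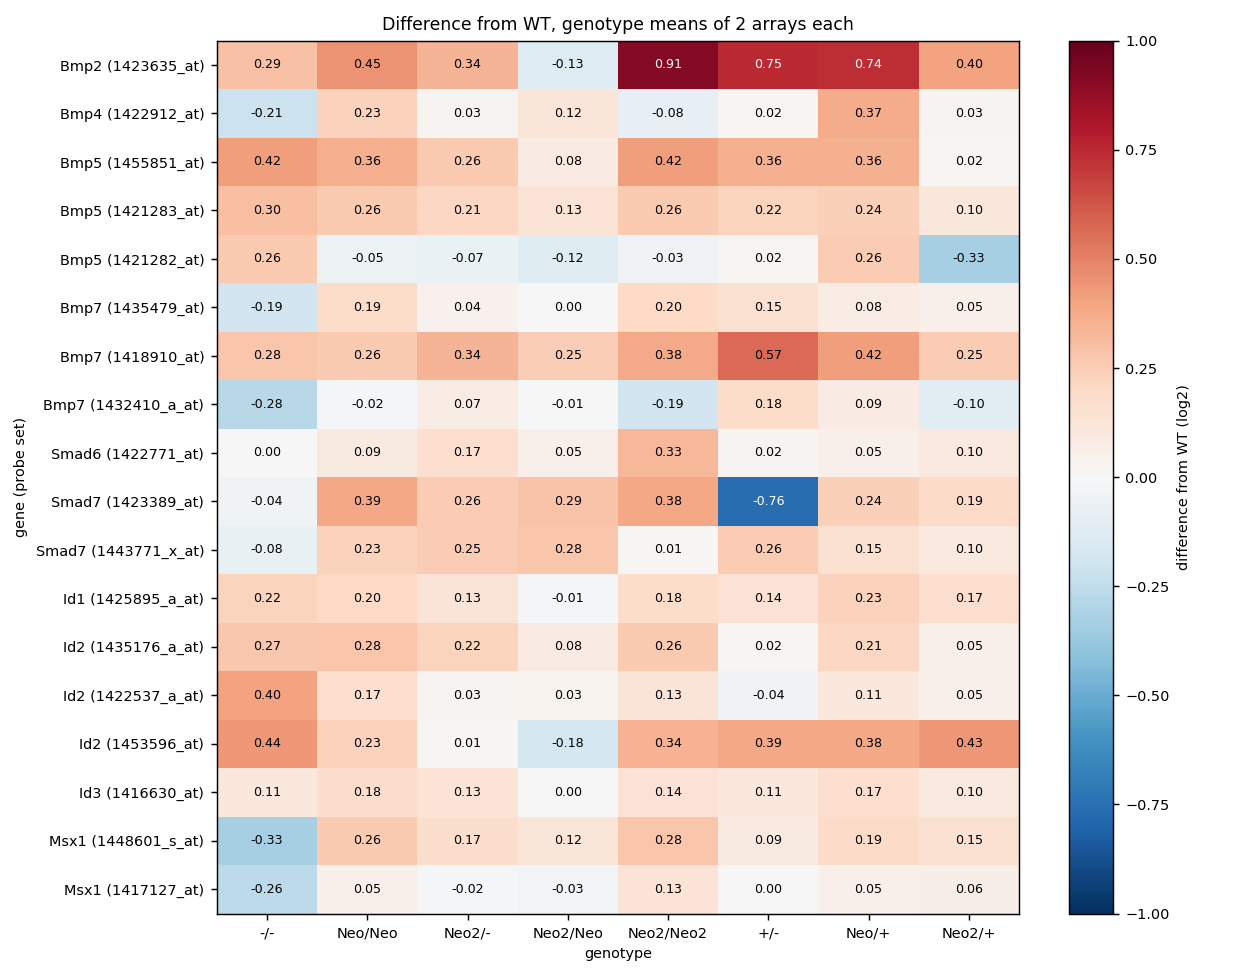
Difference of each genotype mean from the WT mean (log2, 2 arrays per mean) for the 18 probe sets, with genotypes as columns and probe sets as rows. Red is higher and blue lower than WT; most cells are pale red, the deepest red is Bmp2 in Neo2/Neo2 (0.91) and the deepest blue is Smad7 in +/- (-0.76).

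Most probe sets nevertheless had a higher mean in the mutants than in WT. The number above WT was 10 of 18 in -/-, 16 in Neo/Neo, 16 in Neo2/-, 11 in Neo2/Neo, 15 in Neo2/Neo2, 16 in +/-, 18 in Neo/+ and 16 in Neo2/+. Over all probe sets the share above WT lay between 45.7% in Neo2/Neo and 57.6% in +/-. All 8 counts share the same 2 WT arrays, so they are not 8 separate observations. WT replicate 1 was the lowest array of all for Id1, at 10.18, and low for Bmp2, Id3 and the brightest Smad7 probe set. It was also the lowest for Bmp5 1421283_at (6.47), Bmp7 1418910_at (6.76) and Smad7 1443771_x_at (5.85). The same held for Id2 1435176_a_at (11.10) and 1422537_a_at (9.89). For the remaining probe sets another array was the lowest. The median difference over the 18 probe sets was 0.17 in -/-, 0.23 in Neo/Neo, 0.15 in Neo2/-, 0.04 in Neo2/Neo, 0.23 in Neo2/Neo2, 0.13 in +/-, 0.22 in Neo/+ and 0.10 in Neo2/+. The median over all probe sets lay between -0.02 in Neo2/Neo and 0.04 in +/-. Neuronal markers (Tubb3, Stmn2, Elavl3, Elavl4, Dcx, Nefl and Nefm) also differed from the same WT arrays. All 7 had lower means than WT in -/- (median -0.69), Neo2/Neo2 (-1.42), +/- (-0.61) and Neo/+ (-0.52), and 6 in Neo2/+ (-0.05), while all 7 were higher in Neo2/Neo (0.76). The 2 -/- embryos were unlike: the mean deviation of the list was 0.42 and -1.10 in them, against 0.25 and 0.30 in WT. The lower -/- mean thus came from replicate 2. In Neo/+ the values were 0.14 and -0.72. In Neo/Neo and Neo2/- 3 of 7 were lower, with medians of 0.07 and 0.05. None of the 7 passed against WT (limma); at an unadjusted p under 0.05 there were 1 in each of -/-, +/- and Neo/+, 2 in Neo2/Neo and all 7 in Neo2/Neo2. All 4 primitive red cell markers were lower than WT in -/- (median -0.26), Neo2/Neo2 (-0.33), +/- (-0.29), Neo/+ (-0.20) and Neo2/+ (-0.25). They were all higher in Neo2/Neo (0.07), and 3 of 4 were lower in Neo/Neo and Neo2/-. The mean deviation of the red cell list was 0.19 and -0.41 in the 2 -/- embryos, against 0.28 and 0.17 in WT. All 6 heart and all 6 yolk sac endoderm markers were higher in Neo/Neo (0.22 and 0.29), with mixed directions in the other genotypes. None of these passed against WT (limma). The part of any of these markers in the differences of the 18 probe sets was not tested. Bmp5 (2 of its 3 probe sets), Bmp7 (1 of 3), Id2 (1 of 3) and Id3 had means above WT in all 8 mutant genotypes.

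Both arrays of a mutant genotype lay above both WT arrays for 8 of 18 probe sets in -/-, where 20.5% of all probe sets did so. The count was 13 in Neo/Neo (background 21%), 8 in Neo2/- (17.7%), 5 in Neo2/Neo (20.1%), 11 in Neo2/Neo2 (24.8%), 8 in +/- (21.6%), 13 in Neo/+ (23.1%) and 4 in Neo2/+ (19.3%). These and all other counts of 18 include several probe sets of the same gene, read on the same embryos. The 18 are therefore not separate observations. The 8 in -/-, for example, came only from Bmp5, Id1, Id2 and Id3. Both arrays lay below both WT arrays for 1 probe set in each of Neo2/Neo, Neo2/Neo2 and Neo2/+ and for none in the other genotypes. The background of such probe sets was 18.6% in -/-, 20.7% in Neo/Neo, 20% in Neo2/-, 23.8% in Neo2/Neo, 21.7% in Neo2/Neo2, 12.3% in +/-, 18.6% in Neo/+ and 20.7% in Neo2/+. At an unadjusted p under 0.05 (limma) there were 4 of 18 probe sets in -/- against 15.1% of all, 2 in Neo/Neo against 7.01%, 1 in Neo2/- against 6.28%, 0 in Neo2/Neo against 6.72%, 5 in Neo2/Neo2 against 11.6%, 4 in +/- against 11.7%, 5 in Neo/+ against 7.36% and 1 in Neo2/+ against 6.51%. In the F-test 4 of 18 had such a p against 13.7% of all, and in -/- against Neo/Neo 5 had against 15.3%. In a whole embryo, a change in the share of cells that express a gene and a change in RNA per cell cannot be told apart.

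**Figure D2:**
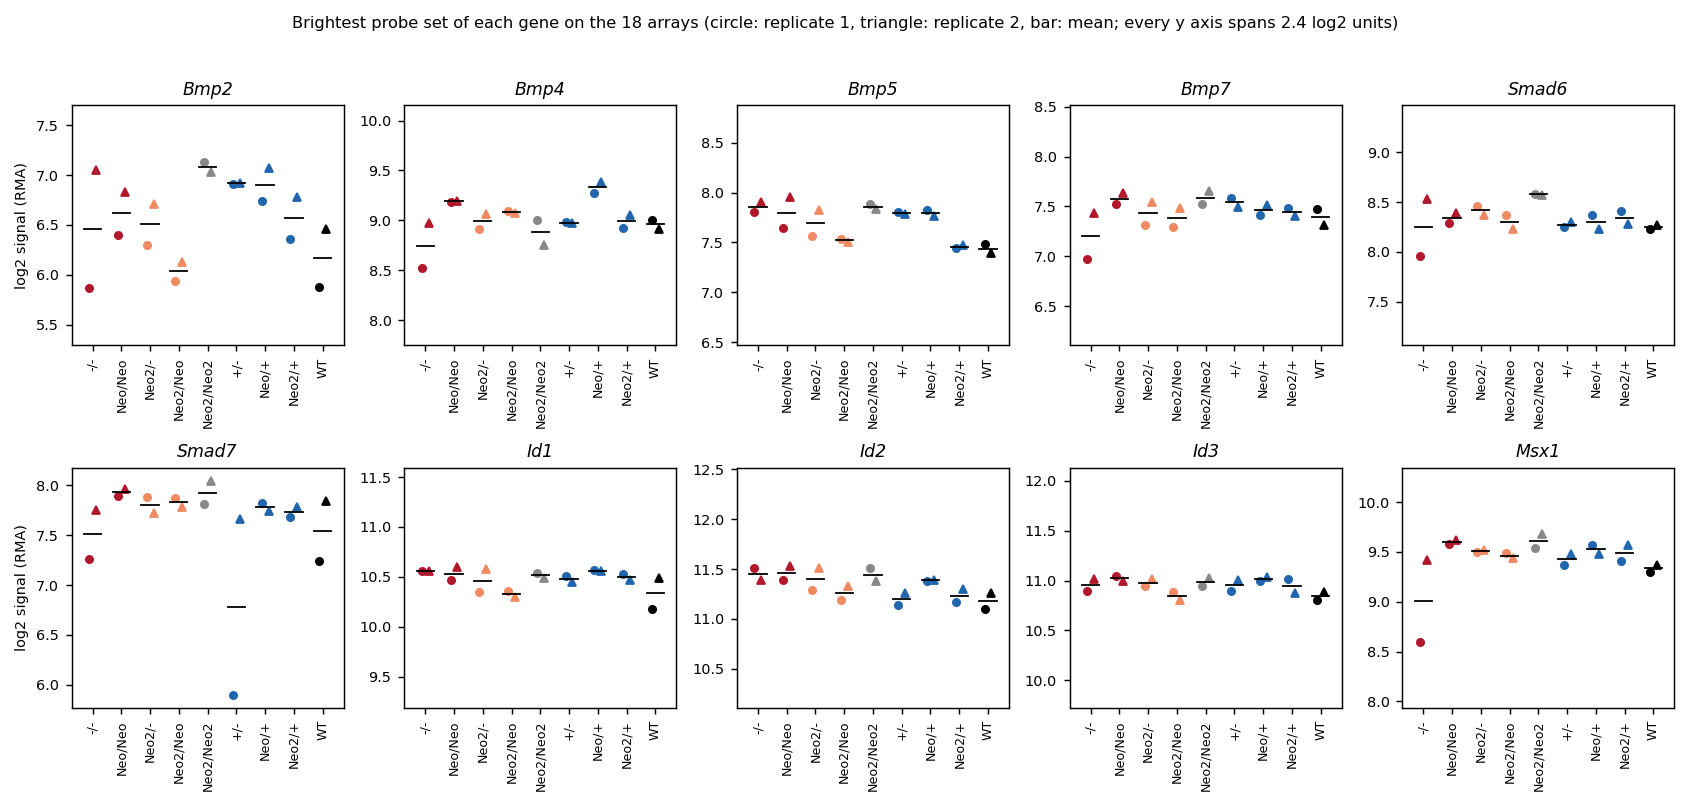
Signal (log2) of the brightest probe set of each of the 10 genes on all 18 arrays, by genotype from -/- to WT; circles are replicate 1, triangles replicate 2 and bars the mean of 2. Id1 and Id3 are nearly flat, Smad7 and Bmp2 vary most between replicates (pooled SD 0.46 and 0.37), and single low points mark Msx1 in -/- replicate 1 (8.59) and Smad7 in +/- replicate 1 (5.90).

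Among the ligands, Bmp2, which acts in heart valve and outflow tract formation, varied most. Its signal was 5.87 and 7.05 in -/-, 6.40 and 6.83 in Neo/Neo, 6.30 and 6.71 in Neo2/-, 5.94 and 6.13 in Neo2/Neo, and 7.13 and 7.03 in Neo2/Neo2. It was 6.91 and 6.92 in +/-, 6.74 and 7.07 in Neo/+, and 6.36 and 6.78 in Neo2/+, against 5.88 and 6.46 in WT. The Neo2/Neo2, +/- and Neo/+ arrays were all above both WT arrays, while the 2 -/- embryos lay at opposite ends of the range. The range of the 9 genotype means was 1.05, wider than in 94.8% of all probe sets, and the pooled replicate SD was 0.37 against a median of 0.15 for all probe sets. Against WT the difference was 0.91 in Neo2/Neo2 (95% interval 0.22 to 1.60; limma, adjusted p = 0.302), 0.75 in +/- (limma, adjusted p = 0.416) and 0.74 in Neo/+ (limma, adjusted p = 0.657). In -/- it was 0.29 (95% interval -0.40 to 0.98), and 0.88 without the 2 arrays that stood apart (95% interval 0.28 to 1.49; limma, adjusted p = 0.167).

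Bmp5, a ligand of the pharyngeal and skeletal mesenchyme, had its lowest mean in WT, level with Neo2/+. Its brightest probe set was at 7.81 and 7.91 in -/-, 7.64 and 7.96 in Neo/Neo, 7.57 and 7.82 in Neo2/-, 7.54 and 7.51 in Neo2/Neo, and 7.88 and 7.83 in Neo2/Neo2. It was at 7.80 and 7.78 in +/-, 7.83 and 7.77 in Neo/+, and 7.44 and 7.47 in Neo2/+, against 7.48 and 7.39 in WT. Every mutant genotype except Neo2/+ had both arrays above both WT arrays. The difference was 0.42 in -/- (SE 0.11, 1.34-fold, 95% interval 0.17 to 0.67; limma, adjusted p = 0.151) and 0.42 in Neo2/Neo2 (limma, adjusted p = 0.221). It was 0.36 in each of Neo/Neo, +/- and Neo/+, with limma adjusted p-values of 0.492, 0.391 and 0.50. The Neo2/Neo2 arrays, with the WT level of Tbx1, thus differed by as much as the -/- arrays. The dimmer Bmp5 probe set 1421283_at also had its lowest mean in WT, whereas 1421282_at had its lowest in Neo2/+. The 3 probe sets correlated over the 18 arrays with r between 0.545 and 0.642.

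Bmp4, the ligand of ventral mesoderm and pharyngeal ectoderm, was at 8.52 and 8.97 in -/-, 9.19 and 9.19 in Neo/Neo and 9.28 and 9.38 in Neo/+, against 9.01 and 8.91 in WT. Neo/Neo and Neo/+ lay above both WT arrays and -/- replicate 1 was the lowest of the 18. The -/- difference was -0.21 (95% interval -0.51 to 0.08; limma, adjusted p = 0.494). Without the 2 arrays that stood apart it was 0.01, and with -/- replicate 2 left out in place of replicate 1 it was -0.44 and passed the test (limma, adjusted p = 0.0414), in a fit where 11.4% of all probe sets passed. In Neo/+ Bmp4 differed by 0.37 (limma, adjusted p = 0.584). Bmp7, which is needed for eye and kidney formation, gave no single direction. Its brightest probe set was at 6.97 and 7.44 in -/-, against 7.47 and 7.31 in WT, a difference of -0.19 (limma, adjusted p = 0.598). It differed by 0.05 without the 2 arrays that stood apart. Probe set 1418910_at of Bmp7 had its lowest mean in WT, at 6.87, and was 0.57 higher in +/- (95% interval 0.16 to 0.98; limma, adjusted p = 0.400). Probe set 1432410_a_at had means above WT in 3 of 8 mutant genotypes. The 3 Bmp7 probe sets correlated at 0.433 to 0.581 over 18 arrays, and at 0.229, 0.16 and -0.521 over the 16 without the 2 that stood apart.

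The inhibitory Smads, which block BMP receptors and, for Smad7, TGF-beta receptors as well, correlated with each other at 0.415 over 18 arrays and 0.443 over 16. Smad6 was at 7.96 and 8.53 in -/- and 8.58 and 8.58 in Neo2/Neo2, against 8.23 and 8.27 in WT. The Neo2/Neo2 arrays were the highest genotype and lay above both WT arrays, and the -/- pair straddled them. The difference was 0.33 in Neo2/Neo2 (95% interval 0.01 to 0.65; limma, adjusted p = 0.415) and 0.00 in -/- (95% interval -0.32 to 0.32), or 0.29 in -/- without the 2 arrays that stood apart (95% interval 0.05 to 0.52; limma, adjusted p = 0.232). The other genotype means of Smad6 were within 0.17 of WT.

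The brightest Smad7 probe set was at 7.26 and 7.75 in -/-, 7.90 and 7.96 in Neo/Neo, 7.81 and 8.04 in Neo2/Neo2, and 5.90 and 7.66 in +/-, against 7.24 and 7.85 in WT. The +/- replicate 1 array was 1.88 below the mean of the 16 arrays other than the 2 that stood apart, whose lowest value was 7.24. The +/- difference of -0.76 (95% interval -1.62 to 0.10; limma, adjusted p = 0.470) rested on it and was 0.12 without that array and -/- replicate 1. With +/- replicate 2 left out in its place, the difference was -1.64 and passed the test (limma, adjusted p = 3.3e-04), in a fit where 11.2% of all probe sets passed. The other Smad7 probe set gave its highest value, 6.39, on the same +/- array, and the 2 probe sets correlated at -0.215 over 18 arrays and 0.401 over 16. The range of Smad7 means, 1.15, was wider than in 95.9% of all probe sets.

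The Id genes encode inhibitors of DNA binding, proteins that dimerise with and silence basic helix-loop-helix factors. Id2 gave the clearest pattern among the 10 genes. Its probe set 1422537_a_at was at 10.44 and 10.31 in -/- and 10.12 and 10.16 in Neo/Neo. On the 8 arrays of +/-, Neo/+, Neo2/+ and WT it ran from 9.89 to 10.09. All 4 arrays with the lowest Tbx1 signal thus lay above all 8 arrays with a wild-type allele. Of the 18 probe sets this was the 1 so separated upwards, and none was separated downwards. Of all probe sets 0.16% were separated upwards and 0.215% downwards. The Neo2/-, Neo2/Neo and Neo2/Neo2 arrays, at 9.89 to 10.13, overlapped both groups.

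For this Id2 probe set -/- and Neo/Neo together were 0.25 above the 4 genotypes with a wild-type allele (SE 0.06, 1.19-fold, 95% interval 0.12 to 0.39). That did not pass the test over all probe sets (limma, unadjusted p = 0.00121, adjusted p = 0.499), and 8.32% of all probe sets had an unadjusted p under 0.05 there. Against WT the -/- difference was 0.40 (SE 0.10, 1.32-fold, 95% interval 0.19 to 0.62; limma, adjusted p = 0.135). Without the 2 arrays that stood apart it was 0.34 (limma, adjusted p = 0.192), and the difference between the 4 and 8 arrays, now 3 and 7, was 0.22 (limma, adjusted p = 0.618). It passed the test without -/- replicate 2 (0.29; limma, adjusted p = 0.0226) and without +/- replicate 2 (0.25; limma, adjusted p = 0.0427), where 8.37% and 4.43% of all probe sets passed. The brightest Id2 probe set was at 11.51 and 11.39 in -/- and 11.39 and 11.53 in Neo/Neo, against 11.10 and 11.26 in WT. Both mutants lay above both WT arrays, but the Neo/+ arrays, at 11.38 and 11.39, overlapped them. It was 0.21 higher in -/- and Neo/Neo than in the 4 genotypes with a wild-type allele (95% interval 0.06 to 0.36; limma, adjusted p = 0.589). The dimmest Id2 probe set, 1453596_at, did not share this, with a difference of 0.03 (limma, adjusted p = 0.935). The -/- and Neo/Neo groups differ in embryo sex. With sex as a covariate no member was called, but none was called without it either, so this cannot show the part of sex. That part was not tested.

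Id1 and Id3 were close to flat. Id1 was at 10.55 and 10.56 in -/-, against 10.18 and 10.48 in WT, and ran from 10.29 to 10.60 on all arrays other than WT replicate 1. Both -/- arrays were above both WT arrays. The difference was 0.22 (95% interval -0.02 to 0.46; limma, adjusted p = 0.375), and 0.07 without WT replicate 1. Id3 was at 10.89 and 11.01 in -/-, against 10.80 and 10.89 in WT, a difference of 0.11 (95% interval -0.09 to 0.31; limma, adjusted p = 0.648). Its genotype means spanned 0.18, a range narrower than that of all but 4.5% of probe sets.

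Msx1, a homeobox gene of the arch mesenchyme and limb buds, was at 8.59 and 9.41 in -/-, 9.58 and 9.62 in Neo/Neo and 9.54 and 9.68 in Neo2/Neo2, against 9.30 and 9.37 in WT. All 17 arrays other than -/- replicate 1 lay between 9.30 and 9.68, so the -/- mean depended on 1 embryo. The -/- difference was -0.33 (95% interval -0.74 to 0.07; limma, adjusted p = 0.435) and 0.08 without the 2 arrays that stood apart. With -/- replicate 2 left out in its place it was -0.74 and passed the test (limma, adjusted p = 0.00207), where 11.4% of all probe sets passed. The dimmer Msx1 probe set had 7.07 on the same array and correlated with the first at 0.912 over 18 arrays and 0.438 over 16. That -/- embryo was below the range of the 16 other arrays for 7 of 18 probe sets (Bmp2, Bmp4, Smad6, Msx1 with both probe sets and Bmp7 with 2 of 3), where 16.5% of all probe sets were. It was above the range for 2, both of Id2, where 19.2% of all were. On the +/- array 2 of 18 were below (12.4% of all) and 4 above (25.4% of all).

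**Figure D3:**
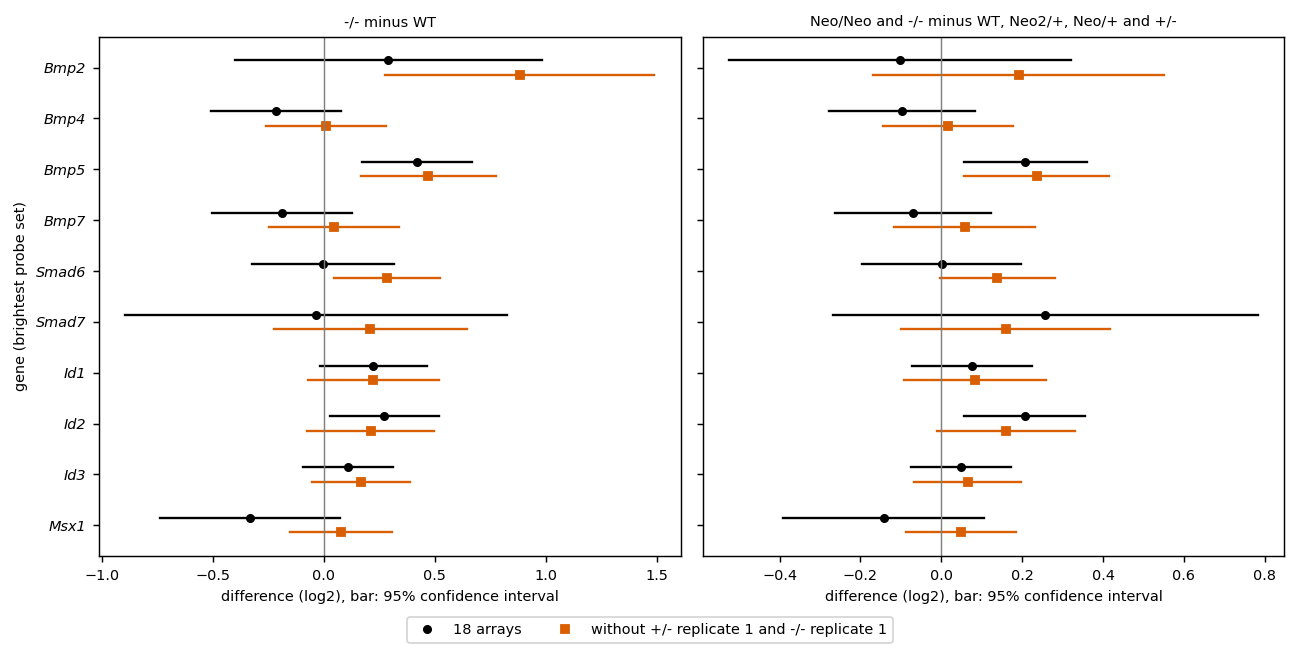
Differences (log2) of the brightest probe set of each gene with 95% confidence intervals, for -/- minus WT on the left and for Neo/Neo and -/- minus the 4 genotypes with a wild-type allele on the right. Black circles use 18 arrays and orange squares leave out -/- replicate 1 and +/- replicate 1; Msx1 and Bmp4 in -/- cross from below 0 (-0.33 and -0.21) to above it (0.08 and 0.01), and Bmp5 stays above 0.

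Read against the Tbx1 signal over the 18 arrays, no member passed the test (slope fit in limma, 0% of all probe sets called), and 1 of 18 had an unadjusted p under 0.05 against 8.74% of all. That was Id2 probe set 1422537_a_at, with -0.13 per log2 unit of Tbx1 (95% interval -0.23 to -0.02; limma, adjusted p = 0.553). The brightest Id2 probe set had -0.10 per unit (95% interval -0.21 to 0.00). Without the 2 arrays that stood apart these slopes were -0.07 and -0.07. The slopes of Id1, Id3 and Bmp4 were -0.02, -0.02 and 0.02, and their 95% intervals lay within -0.14 and 0.17. The brightest Smad7 probe set had -0.16 (95% interval -0.53 to 0.20). The fit took the 18 arrays as separate although the Tbx1 signal follows the genotype, so its intervals may be too narrow. Bmp2 had a slope of 0.21 with an interval from -0.12 to 0.53. It was 0.08 without the 2 arrays that stood apart, 0.10 without -/- replicate 1 and 0.31 without -/- replicate 2. In simulated data this fit found 88% of slopes of 0.5 per unit. The simulated noise was only the spread within genotypes, with no other differences between genotypes. The share found in the real data can therefore be lower.

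**Figure D4:**
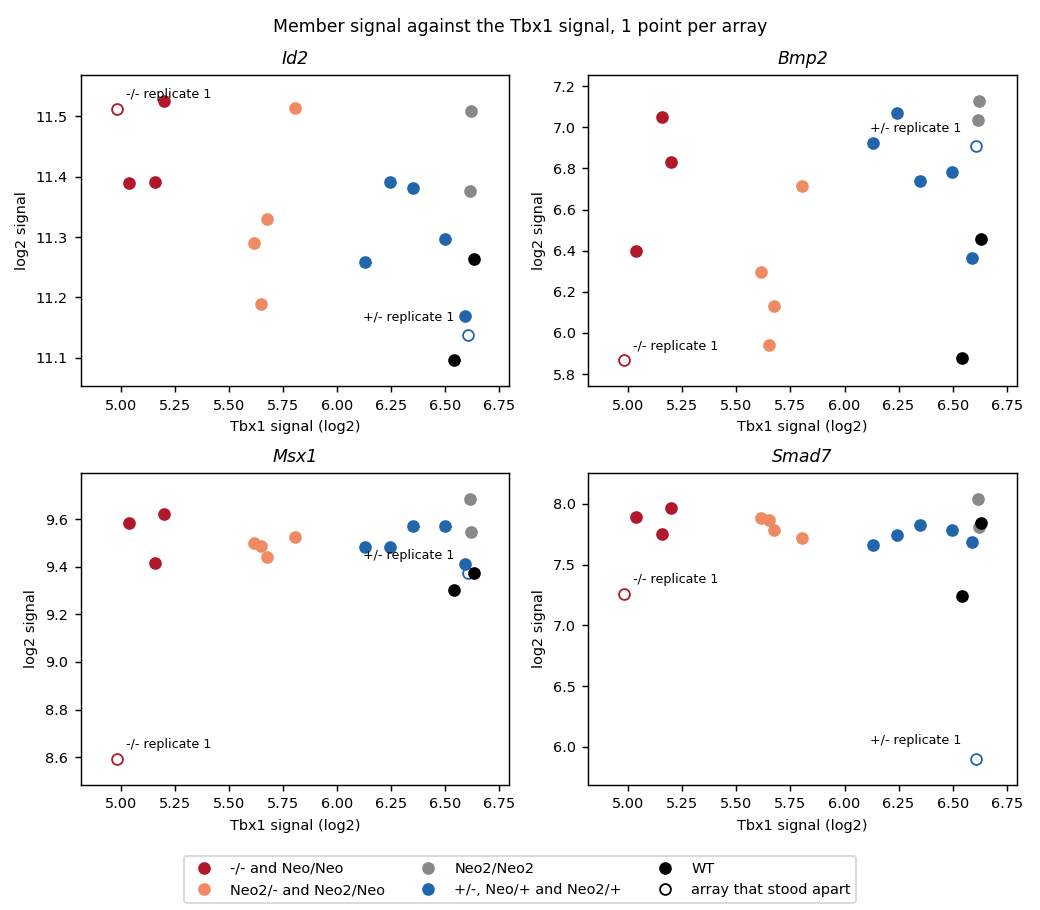
Signal (log2) of the brightest probe sets of Id2, Bmp2, Msx1 and Smad7 against the Tbx1 signal (log2), 1 point per array, coloured by set of genotypes; open symbols are -/- replicate 1 and +/- replicate 1. Id2 runs from 11.51 and 11.39 in -/- to 11.10 and 11.26 in WT with wide scatter between, and the low points of Msx1 (8.59) and Smad7 (5.90) are 1 array each.

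The comparison of the arrays labelled Neo2/Neo2, whose Tbx1 signal was that of WT, with Neo2/Neo gave the widest contrast in Bmp2. Its signal was 7.13 and 7.03 in Neo2/Neo2 against 5.94 and 6.13 in Neo2/Neo, so the groups were apart by more than the spread within them. The difference was 1.05 (SE 0.32, 2.07-fold, 95% interval 0.36 to 1.74), and it did not pass (limma, adjusted p = 0.103). It passed without the 2 arrays that stood apart (limma, adjusted p = 0.0152), where 11.1% of all probe sets did, and also without either -/- array (limma, adjusted p = 0.0198 each time, with 6.26% of all probe sets passing). Id2 probe set 1453596_at was at 7.48 and 7.40 in Neo2/Neo2 and at 6.88 and 6.96 in Neo2/Neo, a difference of 0.52 (limma, adjusted p = 0.0917). It too passed without the 2 arrays (limma, adjusted p = 0.0114). With 18 arrays the other Id2 probe sets, 1435176_a_at and 1422537_a_at, differed by 0.18 and 0.10 (limma, adjusted p = 0.447 and 0.688). Probe set 1453596_at correlated with them at 0.22 and 0.387 over the 18 arrays. At an unadjusted p under 0.05 there were 3 of 18 against 17.6% of all. Of the 18 probe sets 12 had both Neo2/Neo2 arrays above both Neo2/Neo arrays (34.2% of all did) and 2 had both below, Bmp4 and the dim Smad7 probe set (25.2% of all).

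Neuronal markers moved with this contrast. Of the 7 markers 6 passed as lower in Neo2/Neo2, with a median difference of -2.27 over the 7. The mean deviation of the list was -1.12 and -1.08 on the Neo2/Neo2 arrays, against 1.07 and 1.13 on the Neo2/Neo arrays, the lowest and highest genotype means of the 9. In heart, limb bud and yolk sac endoderm markers 1 of 6, 1 of 7 and 1 of 6 passed, and in endothelial, red cell and decidual markers none did. Of all probe sets 2.65% passed. At an unadjusted p under 0.05 (limma) there were 3 of 6 heart, 1 of 7 limb bud and 4 of 6 yolk sac endoderm markers. There were also 4 of 4 red cell, 4 of 5 decidual and 0 of 5 endothelial markers, against 17.6% of all. Median differences were 0.73 in heart, 0.26 in limb bud and -0.78 in yolk sac endoderm markers. They were -0.38 in red cell, 0.26 in decidual and 0.15 in endothelial markers. The genotypes also differ in Tbx1 (0.96 higher in Neo2/Neo2; limma, adjusted p = 0.0127) and in sex, since Neo2/Neo2 embryos were male and Neo2/Neo embryos were 1 of each. The part of any of these in the Bmp2 difference was not tested.

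Of 46 other BMP pathway genes listed, 42 were measured by a probe set of their own: 7 ligands, 7 receptors, 4 signal-carrying Smads, 15 inhibitors, 2 co-receptors and 7 targets. With all 18 arrays none passed in any comparison with WT, in -/- against Neo/Neo, in the 4 against 8 arrays, in the F-test or in the slope on Tbx1. In Neo2/Neo2 against Neo2/Neo 4 of 42 passed, all lower in Neo2/Neo2, where 2.65% of all probe sets passed. Id4, the Id gene of the neural tube, was at 8.96 and 8.75 in Neo2/Neo2 against 10.89 and 10.80 in Neo2/Neo, and fell by 1.99 (SE 0.39; limma, adjusted p = 0.0234). Rgmb, a BMP co-receptor, fell by 0.70 (limma, adjusted p = 0.0284), and Bmpr2, the type II BMP receptor, fell by 0.58 (limma, adjusted p = 0.0414). Tbx2, a T-box repressor induced by BMP in the heart, fell by 0.88 (limma, adjusted p = 0.0454). The sign of these 4 differences was opposite to that of Bmp2 and the same as that of the neuronal markers, whose part in them was not tested.

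Without the 2 arrays that stood apart 12 of 42 passed in that contrast, against 11.1% of all probe sets. In the same setting 4 of 42 passed in Neo2/Neo2 against WT (2.02% of all), 1 in -/- against Neo/Neo (1.22%) and 3 in the F-test (2.77%). Among the 12 in Neo2/Neo2 against Neo2/Neo was Fst, which encodes follistatin, a secreted inhibitor of activins and some BMPs. It was 1.08 higher in Neo2/Neo2 than in Neo2/Neo (limma, adjusted p = 0.0742 with 18 arrays and 0.00210 without the 2). Nog, the BMP antagonist noggin, was 0.67 higher in the same comparison (limma, adjusted p = 0.121 with 18 arrays and 0.0418 without the 2). Fst and Nog were picked after their values were seen and do not stand for the inhibitors as a list. Among the 15 inhibitors measured 10 were higher and 5 lower in Neo2/Neo2, with differences from -0.63 to 1.08. None of the 15 passed with 18 arrays. Of the pathway genes Dlx5, a homeobox gene of the arches, had the smallest p for the slope on Tbx1, at 0.26 per unit (limma, unadjusted p = 9.0e-04, adjusted p = 0.553), followed by Acvr2b (0.16), Bmpr1a (-0.19) and Smurf2 (-0.08). By the F-test the smallest p-values belonged to Rgmb, Id4, Bmp1 and Bmpr2, with limma adjusted p-values from 0.184 to 0.292. Bmp1, a protease that cleaves the BMP antagonist chordin, was 0.50 lower in -/- than in WT (limma, adjusted p = 0.127).

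Over the 18 arrays, which share their normalization and the 2 arrays that stood apart, the genes most like each member by Pearson correlation were as follows. Bmp2 was most like Tcfl5 (0.931), Pkp2 (0.930) and Fst (0.923), and the value for Fst was 0.907 over 16 arrays. Bmp4 was most like Ube4a (0.911), Hyou1 (0.864) and Pxn (0.846). For Bmp5 they were Smim3 (0.901), Rragd (0.858) and Hey2 (0.858), and for Bmp7 Stab1 (0.924), Unc5b (0.891) and Emc1 (0.871). Smad6 was most like Lpcat3 (0.944), Xylt2 (0.886) and Pgd (0.878), and Smad7 like Bcar1 (0.977), Ywhag (0.971) and Mfhas1 (0.971). Among the targets, Id1 was most like Pxmp2 (0.890), Gnai1 (0.875) and Ezh1 (0.869), Id2 like Ccdc47 (0.878), Phkb (0.875) and Dennd6a (0.859), Id3 like Thap11 (0.843), Pappa (0.837) and Jade1 (0.832), and Msx1 like Samd4b (0.963), Myadm (0.962) and Lamc1 (0.958). The values for Smad7 with Bcar1 and Msx1 with Samd4b were 0.787 and 0.849 over the 16 arrays. Among the members themselves Id1 and Id3 correlated at 0.678 and Bmp5 and Id2 at 0.662, or 0.763 and 0.782 without the 2 arrays. For Bmp7 and Msx1 the value was 0.49 over 16 arrays and 0.789 over 18.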

How the data were processed

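The authors' deposited table holds log2 signals of 45037 probe sets on 18 Affymetrix mouse expression arrays. Per the submitters' processing notes the authors used affy for RMA, in versions that the sources used here do not state. The log2 values were used as deposited. RMA gives no detection call, and precision is limited by the 2 arrays per genotype. Genes were named from the platform annotation. Of a gene's probe sets the one with the highest mean is given array by array. limma 3.58.1 in R 4.3.3 fitted 9 genotype means (9 residual and 3.63 prior degrees of freedom) and, apart, a slope on the Tbx1 signal. Tests were two-sided, with Benjamini-Hochberg adjustment over all probe sets and a threshold of 0.05. All 10 members are named, Tbx1 always, other pathway genes where called, the 4 with the smallest p in the F-test and in the slope where none was, and the 3 genes most like each member. Fst, Nog and Bmp1 were also named after their values were seen. The members and lists were chosen with earlier results of these data known. The fits were tested on simulated data. The 2 embryos of a genotype are biological replicates per the labels. Where 1 array of a genotype was left out, the remaining one was taken to vary like the other genotypes.

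Alternatives were single arrays left out, both arrays that stood apart left out, the replicate number as a block, embryo sex, an intensity trend, array weights, median centring, a filter on dim probe sets, gene means, only the arrays compared, and, added after seeing the data, no Neo2/Neo2 arrays.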

Additional observations from a re-analysis of the deposited data

Results flagged for a closer look

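Single arrays far from the others of their set were looked for in the brightest and other member probe sets, among the 4 arrays of -/- and Neo/Neo and the 8 arrays of +/-, Neo/+, Neo2/+ and WT. Of 36 such checks 4 stood out by Dixon's test, and chance alone marks about 1 in 20. Smad7 (1423389_at) was at 5.90 in +/- replicate 1, and the nearest of the other 7 arrays was at 7.24. Id1 was at 10.18 in WT replicate 1, and the nearest was at 10.45. Id2 (1453596_at) was at 7.75 in -/- replicate 1, with the nearest of the other 3 arrays at 7.35. Msx1 (1417127_at) was at 7.07 in the same -/- embryo, with the nearest at 7.72. Of these arrays +/- replicate 1 and -/- replicate 1 are those that stood apart over all probe sets, and WT replicate 1 is not.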

How the results depend on the processing

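No member was called in Neo/Neo, Neo2/-, Neo2/Neo, Neo2/Neo2, Neo/+ or Neo2/+ against WT, or in the slope on Tbx1, under any alternative run. With single arrays left out the number called ranged from 0 to 6 in -/- against WT, 0 to 1 in +/- against WT, 0 to 4 in Neo/Neo and -/- against the 4 genotypes with a wild-type allele, 0 to 6 in -/- against Neo/Neo, 0 to 2 in Neo2/Neo2 against Neo2/Neo and 0 to 3 in the F-test. In the fits with the highest counts the share of all probe sets called was 11.4%, 11.2%, 8.37%, 11.1%, 6.26% and 6.77%, in that order, and these fits left out -/- replicate 2 or, for +/-, +/- replicate 2 (for Neo2/Neo2 either -/- array). Without +/- replicate 2 the F-test called 2 (10.6% of all) and the 4 against 8 arrays 2 (4.43%). Without -/- replicate 2 the 6 calls against WT were both Msx1 probe sets, Bmp4 and 1 Bmp7 probe set (lower) and 2 Id2 probe sets (higher). In Neo2/Neo2 against Neo2/Neo 2 were called without the 2 arrays that stood apart (11.1% of all), 1 with the replicate block (3.24%), 3 with array weights (15.1%), 1 with median centring (2.76%) and 2 with only those 4 arrays (9.71%). The F-test called 1 with array weights (2.96%). In the fit of genotype means the 2 arrays of a genotype got equal weights, 0.35 for both -/- arrays and 0.30 for both +/- arrays. Those weights therefore could not single out the 2 arrays that stood apart. The replicate numbers do not pair the embryos: over 36 pairs of genotypes their correlation ran from -0.262 to 0.186. The block changed no other count.

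Directions were less stable. Without the 2 arrays that stood apart, -/- against WT changed sign for Bmp4 (0.0083), Bmp7 (0.046), Smad7 (0.2094) and Msx1 (0.0771), the 4 against 8 arrays for Bmp2 (0.191), Bmp4 (0.0162), Bmp7 (0.0579) and Msx1 (0.049), and the slope for Bmp4 (-0.079), Bmp7 (-0.0072) and Msx1 (-0.0263). With array weights the slope changed sign for Bmp4 (-0.0721), Bmp7 (-0.0155), Id1 (0.0085) and Msx1 (-0.0229), and with median centring Smad7 in -/- was 0.0129. With single arrays left out the -/- difference ran from -0.3006 to 0.8817 for Bmp2, -0.4378 to 0.0083 for Bmp4, -0.4213 to 0.046 for Bmp7, -0.3387 to 0.2668 for Smad7, -0.7444 to 0.0771 for Msx1 and -0.2932 to 0.2854 for Smad6, which was near 0 with all arrays. The 4 against 8 difference ran from -0.3983 to 0.1929 for Bmp2, -0.2088 to 0.0142 for Bmp4, -0.1869 to 0.0467 for Bmp7 and -0.348 to 0.0627 for Msx1. The slope ran from -0.0808 to 0.0521 for Bmp4, -0.0152 to 0.0902 for Smad6, -0.2781 to 0.0138 for Smad7, -0.0277 to 0.0093 for Id1 and -0.0379 to 0.1593 for Msx1. For Id2, Bmp5 and the nearly flat Id3, all 3 of these results kept their sign without any single array. Beyond the arrays left out, the cause was not tested.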
